A study of Solanum lycopersicum x Solanum pennellii and Solanum lycopersicum with 7 samples.

Results

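Tomato gene identifiers that begin with Solyc00g belong to chromosome 0, the name the tomato annotation uses for sequence that could not be placed on a numbered chromosome. The genes described here are the 177 such identifiers that had at least 10 counts over the 6 libraries of the introgression lines and at least 1 count in each line, with Solyc00g174340 left out. They come from 887 chromosome 0 identifiers among the 34725 identifiers of the count tables. Leaf RNA of field-grown plants was sequenced from the lines IL2-6 and IL3-2, with 3 libraries each, and from the control line M82, with 1. Introgression lines hold a piece of a wild tomato's genome, here of Solanum pennellii, within a cultivated one, and by their names the piece lies on chromosome 2 in IL2-6 and on chromosome 3 in IL3-2. The labels give IL2-6 an enhanced biomass and say nothing further of the genetic background that the lines share. M82 entered only through a list of sequence variants. No line was treated, and no plant age is given.

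Unplaced sequence is what remains of a genome assembly when scaffolds cannot be ordered, often because they are short, repetitive or much like sequence elsewhere. Plant nuclear genomes also hold stretches copied from the plastid and the mitochondrion. Reads from near-identical copies can be assigned to either copy or dropped, so a count for such a gene is uncertain. The deposited tables do not pair the identifiers with names or descriptions, so no gene is given a function here and no check of the tissue by its marker genes was made. Bulk RNA cannot tell fewer cells of a type from less RNA per cell.

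The choice of members used the counts, so their levels and their presence in both lines are a description and support nothing. Of the 887 identifiers, 580 were at 0 in every library and 111 had 1 to 9 counts. At least 10 counts were reached by 196, of which 18 had no count in IL2-6 and 0 had none in IL3-2. Just inside the limit on summed counts lay 5 members with 10 to 12 counts, and just outside it lay 6 identifiers with 8 or 9. Just inside the limit on lines lay 18 members with 1 to 5 counts in IL2-6, and 5 of these had at least 100 counts in IL3-2. In the other direction 4 members had 1 to 5 counts in IL3-2, and 0 of these reached 100 counts in IL2-6.

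The 18 identifiers outside the rule for want of IL2-6 counts had 10 to 2451 counts in IL3-2, with a median of 65.5, and 8 of them had at least 100. A member lay next to 13 of the 18 in the order of the list. Solyc00g011150.1, for example, had no count in IL2-6 and 188, 317 and 332 counts in IL3-2 replicates 1, 2 and 3. Solyc00g011170.1 likewise had none in IL2-6 and 28, 51 and 70 in IL3-2. Between them lies the member Solyc00g011160.1, with 5198, 13963 and 3552 counts in IL2-6 and 234, 358 and 363 in IL3-2. Neighbouring rows thus differed in opposite directions between the lines. Solyc00g012430.1, with no count in IL2-6 and 387, 507 and 601 in IL3-2, lies beside the member Solyc00g012440.1, and both were low in the same line. These examples were chosen after their values were seen.

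The libraries of the lines differed in depth and in their labels. Totals were 18479252 to 21320790 gene counts in IL2-6 and 28828109 to 40146308 in IL3-2. A sequencing lane and flow cell are coded in the labels of the IL3-2 libraries but not in those of IL2-6. Both an unstranded and a stranded kit are named, with no word on which libraries used which. Line and batch therefore cannot be told apart, and reads of genes that overlap on opposite strands cannot be told apart either. Nothing says that libraries of the same line were made from different plants, and p-values then reflect only the variation among these libraries, which may be technical. IL2-6 replicate 2 stood apart for a set of members, so results that rest on it are given with and without it.

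Levels are CPM, counts per 1000000 of the library total after TMM scaling. They are not divided by gene length, so they rank members by their share of reads and not by RNA molecules. Mean levels over the 6 libraries ran from 0.0558 to 1390 CPM, with a median of 2.82 CPM, against a median of 6.99 CPM over all genes with a count. Under 1 CPM lay 61 members, 55 lay between 1 and 10, 53 between 10 and 100, and 8 reached 100 CPM. A count in all 6 libraries was found for 154 members. The 10 members of highest level made up 66.1% of the members' summed level.

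**Figure D1:**
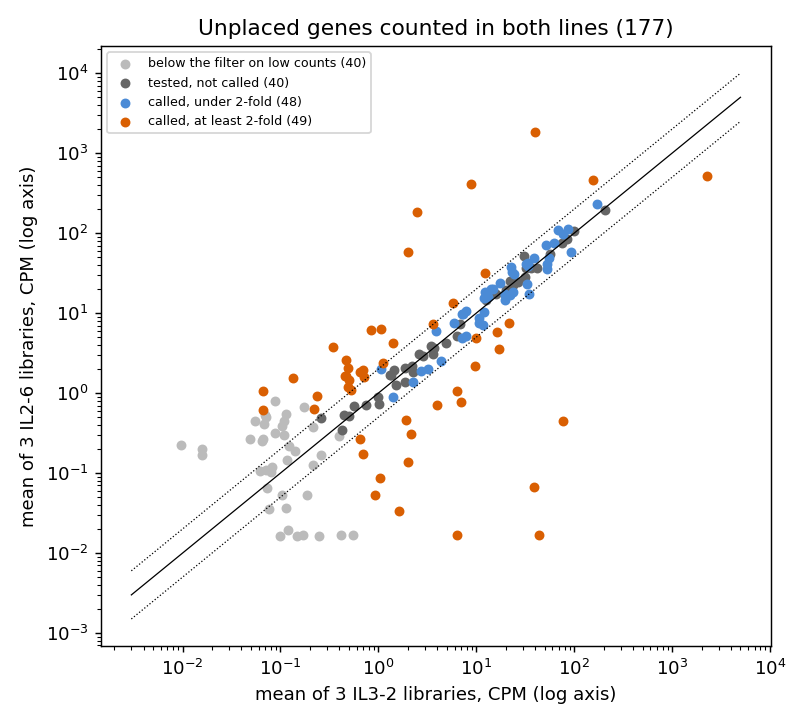
Mean level of each of the 177 members in IL2-6 (vertical) against IL3-2 (horizontal), in CPM on log axes, each point a mean of 3 libraries. The solid line marks equal levels and the dotted lines a 2-fold difference; 49 members were called at 2-fold or more, and a group at the lower right had almost no IL2-6 counts.

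The lines were compared to find the genes whose leaf RNA differs between IL2-6 and IL3-2. Members were found changed in both directions. Of the 177 members, 137 passed the filter on low counts, 54 of these were higher in IL2-6, 43 were lower, and 40 did not pass the threshold (edgeR quasi-likelihood test over all 20823 genes, Benjamini-Hochberg adjusted p under 0.05). The 97 called members were 70.8% of those tested, against 63.3% of all tested genes (30.4% higher and 33.0% lower in IL2-6). The split turned with raw library totals in place of TMM scaling, to 47 higher and 56 lower, and that scaling moved the median log2 fold change of all genes from −0.01 to −0.17. The libraries of the lines did not overlap for 101 of the 137, or 73.7%, against 67.7% of all tested genes. Among the members that passed, 13 had 10 counts in at least 2 libraries only in IL3-2 and 3 only in IL2-6. The filter itself works relative to library totals, which were larger in IL3-2. These numbers are therefore not those of members that passed through 1 line only. Solyc00g021640.2, with 2, 10 and 15 counts in IL3-2, passed through IL2-6 and is not among the 3. The counts above describe the members that passed the filter and not all 177.

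Larger differences were counted as well. The called members with a difference of at least 2-fold numbered 49, or 35.8% of those tested, against 17.0% of all tested genes. The 49 include members that passed the filter only through the line where they were high, such as Solyc00g029190.2 in IL3-2 and Solyc00g028960.1 in IL2-6. For those a large difference follows in part from the filter, so the share is a description. Of the 49, 28 were higher in IL2-6, against 4.89% of all tested genes in that direction, and 21 were lower, against 12.1%. Over all tested genes most 2-fold differences were thus lower in IL2-6, while among the members more were higher. The member rule had left out 18 identifiers with no count in IL2-6 and 0 with none in IL3-2. The set of all tested genes keeps such rows, for example Solyc00g006690.2 at a log2 fold change of −11.9. The 2 splits therefore cannot be set against each other. Without IL2-6 replicate 2 the members' split was 22 higher and 24 lower, of 141 tested. In that setting 3798 of all 21360 tested genes were called at 2-fold, and 4.84% were higher at 2-fold. The median log2 fold change, IL2-6 minus IL3-2, was 0.08 over the members that passed and −0.01 over all tested genes, and the median absolute value was 0.50 against 0.33.

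The share called at 2-fold was also taken by level. Under 1 CPM, 13 of 21 tested members (61.9%) were called at 2-fold, against 51.9% of all tested genes of that level. Between 1 and 10 CPM it was 23 of 55 members (41.8%) against 25.4%. Between 10 and 100 CPM it was 9 of 53 (17.0%) against 6.40%, and from 100 CPM it was 4 of 8 against 5.67%. The share was smaller at higher levels up to 100 CPM, both among the members and among all genes, and the 8 members above that did not continue this. The members' share was the higher one in each of these 4 ranges, and no test was made of these shares. Under 1 CPM the filter can keep a gene only through the line where it is high, as for Solyc00g084870.2. The share in that range thus follows in part from the filter, among the members and among all genes. Higher ranges hold such members too. Solyc00g075450.2, between 1 and 10 CPM, and Solyc00g012440.1, between 10 and 100 CPM, passed only through IL3-2.

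**Figure D2:**
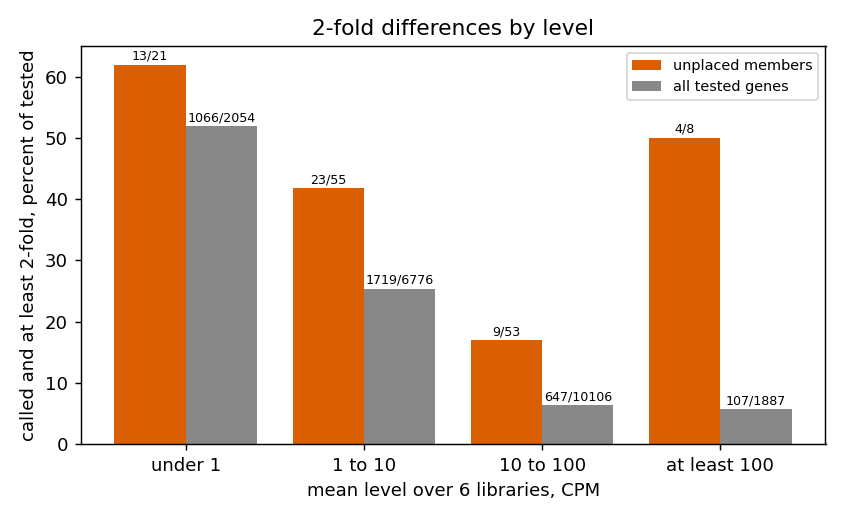
Share of tested genes called and at least 2-fold different between IL2-6 and IL3-2, in percent, in 4 ranges of mean CPM, for the unplaced members and for all tested genes. The numbers over the bars are the genes called and the genes tested, and the members' bar is the higher one in each range. Genes that passed the filter only through the line where they were high are included.

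The member with the highest level was Solyc00g174330.2, which was lower in IL2-6. Its levels were 420, 622 and 493 CPM in IL2-6 replicates 1, 2 and 3, and 2644, 2064 and 2098 CPM in the IL3-2 replicates. All IL2-6 libraries lay far under all IL3-2 libraries. The means were 512 ± 102 and 2269 ± 326 CPM (SD over 3 libraries; log2 fold change −2.15, SE 0.12, edgeR adjusted p = 1.49e-09). In the list it directly precedes the identifier that was left out by name.

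Solyc00g006470.1, second in level, was higher in IL2-6 and varied widely there. It had 1151, 3530 and 854 CPM in IL2-6 replicates 1, 2 and 3, and 34.5, 42.6 and 42.8 CPM in IL3-2. Replicate 2 was the high library, yet the lowest IL2-6 library was still far above the highest IL3-2 library. On the log2 scale the difference was 5.52 (SE 0.43, edgeR adjusted p = 5.20e-08) and 4.65 without IL2-6 replicate 2 (adjusted p = 4.59e-15).

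Solyc00g024150.2, next in level, was also higher in IL2-6, with replicates close to each other. Its levels were 464, 452 and 458 CPM in IL2-6 and 156, 155 and 153 CPM in IL3-2. The 3-library means were 458 ± 6.02 and 155 ± 1.60 CPM (SD; log2 fold change 1.57, SE 0.05, edgeR adjusted p = 1.41e-12).

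Among the other members of highest level, Solyc00g011160.1 and Solyc00g008570.2 resembled the second in their spread and are described with the unlike replicates. Solyc00g136560.2, at 111 ± 4.67 CPM in IL2-6 against 68.3 ± 1.17 CPM (SD over 3 libraries), had a log2 fold change of 0.70 (edgeR adjusted p = 2.99e-08). Solyc00g007270.2 was higher in IL2-6 by less, at 230 ± 8.09 against 172 ± 7.01 CPM (SD over 3 libraries; log2 fold change 0.42, edgeR adjusted p = 5.48e-06). Solyc00g005840.2 had 114 ± 3.82 against 87.0 ± 0.945 CPM, a log2 fold change of 0.38 (edgeR adjusted p = 9.41e-06). For each of these 3 the libraries of the lines did not overlap.

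A further 2 of the 10 did not pass the threshold. Solyc00g009020.2 had 185, 198 and 195 CPM in IL2-6 and 210, 204 and 208 CPM in IL3-2 (log2 fold change −0.10, SE 0.05, edgeR adjusted p = 0.0712). With raw library totals it passed, at −0.27 (adjusted p = 1.42e-04). Solyc00g085070.2 had 106, 101 and 108 CPM in IL2-6 and 90.8, 104 and 103 CPM in IL3-2, and its libraries overlapped (log2 fold change 0.08, standard error 0.06, edgeR adjusted p = 0.234).

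**Figure D3:**
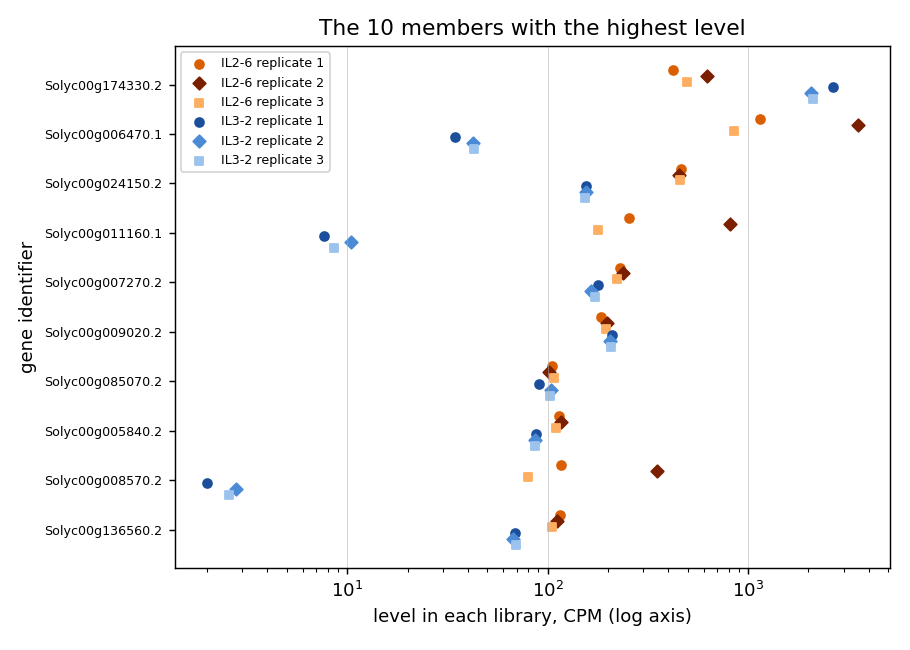
Level of the 10 members of highest mean CPM in each of the 6 libraries, in CPM on a log axis, with IL2-6 libraries in orange to brown and IL3-2 libraries in blue. Solyc00g174330.2 is lower in all IL2-6 libraries, Solyc00g006470.1, Solyc00g011160.1 and Solyc00g008570.2 are far higher there with replicate 2 above the others, and the libraries of Solyc00g085070.2 overlap.

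The largest falls in IL2-6 were all but losses of the count, and the rule that asks for 1 count in each line sets how far such a fall can go. Solyc00g012440.1 had 0, 0 and 1 counts in IL2-6 replicates 1, 2 and 3 and 1089, 1636 and 2071 in IL3-2, which is 44.1 ± 7.27 CPM (SD over 3 libraries). IL3-2 exceeded IL2-6 by a ratio of 2570, with a 95% exact binomial interval for counting error of 461 to 101548. Solyc00g009760.2 had 0, 0 and 4 counts in IL2-6, all in replicate 3, and 956, 1393 and 1912 in IL3-2, or 39.0 ± 7.05 CPM. Its ratio was 571, with an interval of 223 to 2096. For both genes all IL3-2 libraries were far above all IL2-6 libraries. Both passed the filter only through IL3-2 and are members only through counts in IL2-6 replicate 3, so their values are given with no test. Without that replicate both had 0 counts in IL2-6, and IL3-2 was at least 552-fold and at least 489-fold higher, against a floor of 3 counts over the 2 remaining IL2-6 libraries. Such falls, and the 18 identifiers without IL2-6 counts, cannot be told apart from a difference between the lines in library kit or in the strand setting of the counting, which are not given per library.

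The largest rises in IL2-6 over all 6 libraries were those of Solyc00g008570.2 and Solyc00g011160.1. Solyc00g008570.2 had 116, 350 and 79.4 CPM in IL2-6 and 2.00, 2.79 and 2.58 CPM in IL3-2 (log2 fold change 6.19, SE 0.51, edgeR adjusted p = 1.05e-07). Solyc00g011160.1 had 255, 814 and 179 CPM in IL2-6 and 7.68, 10.4 and 8.59 CPM in IL3-2 (log2 fold change 5.54, SE 0.47, edgeR adjusted p = 1.45e-07). In both genes the lines did not overlap and replicate 2 was the highest IL2-6 library. Without it the log2 fold changes were 5.30 and 4.61. Solyc00g006470.1, at 5.52, lay just under Solyc00g011160.1, and the order of this pair turned without that library (4.65 against 4.61) and with limma-voom (5.24 against 5.22).

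Unlike replicates were counted among genes with a mean of at least 20 counts per library of a line, as those whose highest library was at least 2-fold above the lowest. Of 111 such members in IL2-6, 16 were unlike, or 14.4%, against 1.23% of all genes. Replicate 2 was the library farthest from the others in 14 of the 16, and replicates 1 and 3 in 1 each. Of 120 such members in IL3-2, 3 were unlike, or 2.5%, against 1.0% of all genes. Most members thus had like replicates, and the median ratio of the highest to the lowest library was 1.18 in IL2-6 and 1.17 in IL3-2, against 1.12 and 1.13 over all genes.

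In IL2-6 replicate 2, 14 members were at least 2-fold above both other libraries, 12.5% of the 112 chromosome 0 genes with enough counts, which include the identifier left out by name. Over all genes the share was 0.547% (99 of 18086). No member was at least 2-fold below both, and 9 genes of all were. The level in replicate 2 was 2.19 to 3.86 times the mean of the other libraries in the 14, with a median of 3.21, and a median of 1.02 times in the other members. Replicate 1 was above replicate 3 in 12 of the 14, and replicate 1 was the lowest IL3-2 library in 11. These 14 were picked by their IL2-6 values, so their counts are a description.

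The 5 members with the largest spread in IL2-6 shared an order of libraries. In Solyc00g006670.2 the levels were 8.96, 25.9 and 5.64 CPM in replicates 1, 2 and 3, a ratio of 4.59 between the highest and the lowest. The ratio was 4.55 in Solyc00g011160.1, 4.41 in Solyc00g008570.2, 4.41 in Solyc00g277510.1 and 4.13 in Solyc00g006470.1. Replicate 2 was 2.89 to 3.20 times replicate 1 in these 5 genes, and replicate 1 was 1.35 to 1.59 times replicate 3. The 5 were picked by their spread, and over all 14 members high in replicate 2 the first of these ratios ran from 2.04 to 3.70 and the second from 0.972 to 1.59. Solyc00g277510.1 had 38.3, 113 and 25.6 CPM in IL2-6 and 1.54, 2.30 and 2.25 CPM in IL3-2, with no overlap (log2 fold change 4.82, edgeR adjusted p = 9.51e-07). Without IL2-6 replicate 2 it was 3.96 (adjusted p = 7.50e-12).

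Of the 14 members, 13 were higher in IL2-6 with an adjusted p under 0.05 in edgeR, and each of the 13 by at least 2-fold. This contrast shares replicate 2 with the values that picked them. Without that library 11 of the 14 stayed higher with an adjusted p under 0.05, 8 of them by at least 2-fold. Of all tested genes 27.9% were then called higher and 4.84% at 2-fold. The 14 also needed a mean of at least 20 counts per library in IL2-6, with no minimum in IL3-2. That limit favours members high in IL2-6 and was not set for all tested genes, so the comparison is a description. Solyc00g021630.1, for example, had 5, 4 and 5 counts in IL3-2. For 12 of the 14 both remaining IL2-6 libraries were above all IL3-2 libraries. The share of all tested genes with that order was not taken, so the number stands without a comparison. Solyc00g006670.2 was not called without replicate 2, at a log2 fold change of 0.33 (edgeR adjusted p = 0.0808), against 1.18 with it (adjusted p = 0.0121). Its IL3-2 levels of 5.45, 6.19 and 5.85 CPM overlapped with those of IL2-6. Solyc00g068980.1 was the member of the 14 not called with all libraries, at a log2 fold change of 0.76, and it was at −0.07 without replicate 2 (adjusted p = 0.546).

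**Figure D4:**
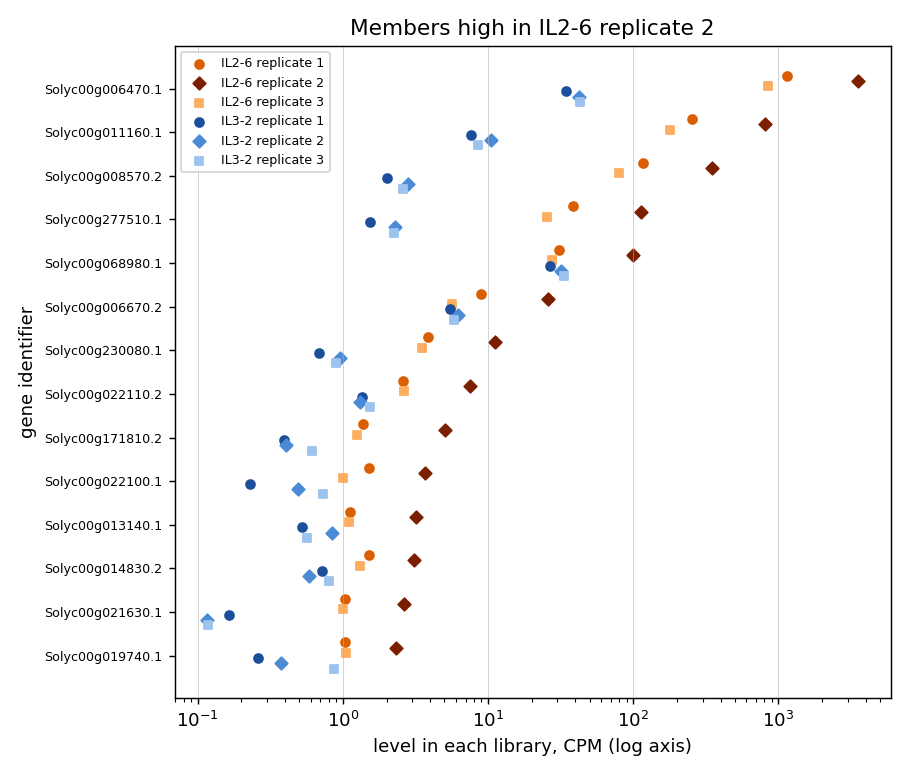
Level of the 14 members that were at least 2-fold higher in IL2-6 replicate 2 than in replicates 1 and 3, in CPM on a log axis, 1 point per library. The brown diamonds of IL2-6 replicate 2 lie to the right of the other IL2-6 points in every gene by construction, and the blue IL3-2 points lie at the left for most genes but not for Solyc00g068980.1 and Solyc00g006670.2.

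The 14 weighed heavily in the members' summed level. All 177 members together had 4916, 8503 and 4554 CPM in IL2-6 replicates 1, 2 and 3, and 5339, 4818 and 4874 CPM in IL3-2, so the lines overlapped. The 14 took 1614, 4970 and 1184 CPM of this in IL2-6 and 82.4, 101 and 102 CPM in IL3-2. Without the 14 and the member of highest level, the remaining 162 members summed to 2882, 2911 and 2876 CPM in IL2-6 and 2612, 2653 and 2674 CPM in IL3-2. All IL2-6 libraries were slightly higher in that sum, which rests on the scaling and on leaving out the member of highest level. As shares of the raw totals the 162 had 0.276%, 0.270% and 0.273% in IL2-6 and 0.276%, 0.282% and 0.281% in IL3-2. Without the 14 alone, the remaining 163 members summed to 3302, 3533 and 3370 CPM in IL2-6, under the 5257, 4717 and 4772 CPM in IL3-2.

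High values in IL2-6 replicate 2 were also found on numbered chromosomes. The share of genes at least 2-fold above both other libraries ran from 0 of 1311 genes on chromosome 8 to 1.19% (15 of 1258) on chromosome 11 and 1.18% (27 of 2292) on chromosome 1. On chromosome 1, 23 of the 27 lay in a block of 50 tested genes, from Solyc01g007260.2 to Solyc01g007880.2, where 43 genes had enough counts. The block summed to 3533, 9823 and 2772 CPM in IL2-6 and to 464, 494 and 511 CPM in IL3-2. In IL2-6 replicate 2 was its highest library and replicate 3 its lowest, the order also seen in 12 of the 14 unplaced members, which were picked for a high replicate 2. The limits of the block were likewise set with earlier results of these data known, so the shared order is a description. Whether the block and the members share reads or a source was not tested.

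**Figure D5:**
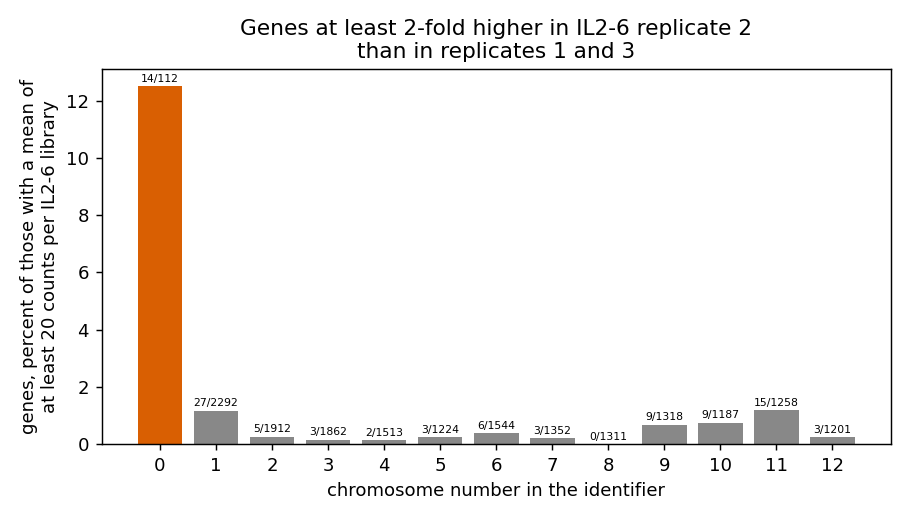
Share of genes, in percent of those with a mean of at least 20 counts per IL2-6 library, that were at least 2-fold higher in IL2-6 replicate 2 than in both other replicates, by the chromosome number in the identifier. Chromosome 0 stands at 12.5% (14 of 112) and the numbered chromosomes at 0 to 1.19%.

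Spread within IL3-2 was smaller. Solyc00g131710.1 had 7, 28 and 28 counts in IL3-2 replicates 1, 2 and 3, and Solyc00g007150.2 had 17, 46 and 46, so replicate 1 was the low library in both. Neither gene differed between the lines with an adjusted p under 0.05 in edgeR (0.647 and 0.684). Solyc00g075450.2 had 37, 103 and 74 counts in IL3-2 and 3, 2 and 3 in IL2-6, a log2 fold change of −3.80. It passed the filter only through IL3-2, so this is a description with no test.

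Identifier order gave few blocks of members that changed together. In 14 runs of at least 3 members that follow each other in the list lay 55 members, 44 of them tested, and 10 of these (22.7%) were called at 2-fold. Outside the runs it was 39 of 93 tested members (41.9%), and over all tested genes 17.0%. The longest run, 8 members from Solyc00g007060.2 to Solyc00g007130.2, had 1 member higher and 4 lower in IL2-6, with log2 fold changes of −0.55 to 1.11. A run of 7, from Solyc00g009080.2 to Solyc00g009140.2, had 5 higher and 1 lower and 0 at 2-fold, with log2 fold changes of −0.78 to 0.43. The 4 members of the run from Solyc00g019730.1 to Solyc00g019950.1 were low, at 0.167 to 0.989 CPM. The 2 that were tested were both called higher in IL2-6, as were 30.4% of all tested genes. Solyc00g019740.1 is 1 of the 14 members high in replicate 2 and was not called without that library (edgeR adjusted p = 0.0550). For Solyc00g019730.1 the libraries of the lines overlapped. Of the 14 members high in replicate 2, 4 lay in runs, in 4 different ones.

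The number after the point in an identifier gives the version of the gene model. Version 1 models made up 755 of the 887 listed chromosome 0 identifiers and 79 of the 177 members, with a median level of 0.835 CPM, while the 98 members of version 2 had a median of 10.3 CPM. Of the tested members of version 1, 20 of 49 were called at 2-fold (40.8%), 15 of them higher in IL2-6. Of those of version 2, 29 of 88 were (33.0%), 13 of them higher. Over all tested genes the shares were 22.7% and 14.0%. The share at 2-fold also varied with level, and the versions were not compared at like level. Version and level therefore cannot be told apart here. Among the 14 members high in replicate 2, 9 were version 1 models.

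The M82 library, which per the series description checked the genotypes, gave 800 variant records on chromosome 0 of the SL2.50 build among all its records. Homozygous records were 580 of the 800 (72.5%, exact 95% interval 69.3% to 75.6%), against 65.3% (64.9% to 65.7%) on the numbered chromosomes. With limits of 30 on the quality score and 10 on the read depth, 261 records remained, and 185 were homozygous (70.9%, 65.0% to 76.3%), against 71.4% (70.5% to 72.2%) elsewhere. At these limits the shares lay within each other's counting error. Median depth was 47 reads on chromosome 0 and 27 on the numbered chromosomes.

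A larger share of the chromosome 0 records fell short of the highest mapping quality, while the median was 50 there and on the numbered chromosomes. Among the 261 records, 109 had a mapping quality under 50, the highest value in the file, or 41.8% (exact 95% interval 35.7% to 48.0%), against 10.6% (10.1% to 11.2%) on the numbered chromosomes. Over all records the shares were 23.5% (20.6% to 26.6%) and 4.91% (4.72% to 5.11%). The intervals do not overlap, but they cover counting error only, records of 1 gene are not independent, and there is 1 library. The 261 records lay in 19 bins of 1 Mb, and the richest, chromosome 0 from 9000001 to 10000000 of SL2.50, held 37 of them, 34 homozygous, at a median depth of 116 reads. The 3 richest bins held 37.2% of the records. Positions of the members were not used here, so records were not assigned to them.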

How the data were processed

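Leaf RNA of 3 IL2-6, 3 IL3-2 and 1 M82 libraries was grouped by the line in the titles. The deposited values of the introgression lines are raw gene counts, which the authors did not normalize as far as the whole numbers and unequal totals show. For M82 the authors deposited variant records with a quality score, depth, mapping quality and genotype, on SL2.50 chromosome names per the file headers. Tools named in the submitters' processing notes, with no role stated, are HTSeq, TopHat2, edgeR, Trimmomatic, CASAVA 1.8.2 and SAMtools 1.9. For the counts, neither genome build nor strand setting is given in the sources used here.

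Genes were kept with filterByExpr (20823), scaled with TMM factors of 0.928 to 1.064 and tested with edgeR 4.0.16 (glmQLFTest, line as the only term, R 4.3.3), with Benjamini-Hochberg adjustment over all tested genes. DESeq2 1.42.0, limma-voom (limma 3.58.1), other scalings, no filter, left-out libraries and a replicate block were tried. In simulated counts for the comparison of IL2-6 with IL3-2 over 20823 genes with 200 changed, edgeR recovered 83.3% of 1.5-fold, 91.8% of 2-fold and 98.5% of 4-fold changes, with 4 false of 187 calls. The simulation gave every gene the same dispersion, and in the data 63.3% of all tested genes were called. Its shares need not hold for these data, least of all for members with unlike replicates. Intervals are exact binomial (scipy 1.17.1). Replicates of a line differed by more than sampling noise (chi-square per degree of freedom 2.33 to 11.2).

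The members, lists and tests were chosen with earlier results of these data known. Named members were the 10 of highest level, the 2 strongest rises and the 2 strongest falls of called members without overlap and with 5 CPM in the higher line, the 5 of largest spread in each line (3 passed the ratio in IL3-2), and runs of at least 3. No table pairs the identifiers with names, so lists by function and tissue markers were not applied and no sequences are shown.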

Additional observations from a re-analysis of the deposited data

How the results depend on the processing

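Over the reported results 253 alternative values were computed, and 241 held: a tested value kept its direction and its side of the threshold, a count stayed within 1.5 times the main one, and a summed level moved by less than 1 SD. Most of the 204 values of named members belong to genes picked as extremes or for high level, which had little room to change. The number of called members was 97 of 137 tested, 97 with limma-voom and 103 with raw library totals. It was 93 to 98 with each library left out in turn. On the larger base of 177 members it was 104 with DESeq2 and 120 without a filter. Over all genes 63.3% were called in the main test, 63.0% with limma-voom and 65.0% with raw library totals. Those shares were 57.4% to 64.0% with a library left out, 45.5% with DESeq2 and 52.9% without a filter. At 2-fold the number of members was 49 (3539 over all genes) and 46 to 56 with a library left out. Of the 177 members it was 61 with DESeq2 (4082 over all genes) and 70 without a filter (4642). Without the 14 members high in IL2-6 replicate 2, an alternative chosen after seeing the data, it was 36. Same-numbered libraries did not deviate together (correlations of −0.119 to −0.008). Pairs of unlike number were not compared, so this check cannot exclude a pairing of the numbers. With the replicate number as a block 95 members were called and 48 at 2-fold, where 60.0% of all genes were called. Members with unlike IL2-6 replicates fell from 16 to 8 with a mean of at least 50 counts and to 9 at 3-fold, and those with unlike IL3-2 replicates from 3 to 1 under both, which follows from the stricter limits. The summed level of the members in IL3-2 was 5299 CPM with raw library totals, against 5010. Without the 2 members of highest level, also chosen after seeing the data, it was 2702 CPM in IL3-2 and 3634 CPM in IL2-6, against 5991. With each library left out, the sum ran from 4735 to 6709 CPM in IL2-6 and from 4846 to 5107 CPM in IL3-2. Of the 800 M82 records on chromosome 0, 261 met both the quality and the depth limit. Solyc00g006670.2 lost its call with DESeq2 (log2 fold change 1.22, adjusted p = 0.105), with limma-voom (0.86, adjusted p = 0.0533) and without IL2-6 replicate 2 (0.33, adjusted p = 0.0808); the cause was not tested in the first 2 of these. Below the filter lay 40 members, which the main test left out. Without a filter 21 of these 40 were called, where 52.9% of all genes with a count were called.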
